A study of Mus musculus with 6 samples.

Results

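In all, 10 genes were followed in mouse pancreatic islets: Prok1 and its chromosomal neighbour Cym, the vascular endothelial growth factor (VEGF) family ligands Vegfa, Vegfb, Vegfc and Pgf, the angiopoietins Angpt1 and Angpt2, and the VEGF receptors Kdr and Flt1. They were found by symbol among the 19940 genes of the authors' deposited table, where all 10 had a line. They were chosen by name with the authors' group means and ratios of this contrast already known, so those values are given here as a description. Islets were hand-picked after enzyme digestion of the pancreas through the bile duct, and their RNA was sequenced from TruSeq libraries. There were 3 samples from pregnant C57BL6/J mice at gestational day 14.5 and 3 from nonpregnant C57BL6/J littermates, with no ages in the labels. The labels give 3 samples a group while the design text gives 5 animals a group, and the number of animals behind a sample was not analysed here. The deposited values are 1 mean read count per gene and group, so no spread between samples can be shown and no value per sample is given.

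The VEGF ligands act on receptor tyrosine kinases of endothelial cells, of which Kdr carries most of the growth signal and Flt1 binds ligand tightly with weaker signalling. Vegfa is the member made by beta cells that maintains the dense, fenestrated capillaries of the islet. Angiopoietins act on the endothelial receptor Tek, with Angpt1 as its activator and Angpt2 as a context-dependent antagonist. Prok1, prokineticin 1, is also called endocrine gland-derived VEGF although its sequence is unrelated to that family, and it acts on the G protein-coupled receptors Prokr1 and Prokr2. Cym is chymosin, a pepsin-like aspartic protease known from the calf stomach, where it clots milk.

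The starts of Prok1 and Cym are shown because these adjacent genes were the 2 members with reads almost only in the pregnant mean. Each sequence runs 5′ to 3′ on the minus strand of chromosome 3, from 250 bases before an annotated start to 50 after it, from RefSeq on GRCm38.p6. Capitals mark TTCNNNGAA, the STAT5-type motif, and TATAAA, the TATA motif.
Prok1, chr3:107239658-107239957: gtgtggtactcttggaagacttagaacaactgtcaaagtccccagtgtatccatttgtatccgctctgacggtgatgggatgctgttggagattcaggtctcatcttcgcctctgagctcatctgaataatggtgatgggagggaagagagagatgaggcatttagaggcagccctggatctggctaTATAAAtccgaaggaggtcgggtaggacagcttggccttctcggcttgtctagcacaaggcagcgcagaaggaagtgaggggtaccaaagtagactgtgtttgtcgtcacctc
Prok1, chr3:107238603-107238902: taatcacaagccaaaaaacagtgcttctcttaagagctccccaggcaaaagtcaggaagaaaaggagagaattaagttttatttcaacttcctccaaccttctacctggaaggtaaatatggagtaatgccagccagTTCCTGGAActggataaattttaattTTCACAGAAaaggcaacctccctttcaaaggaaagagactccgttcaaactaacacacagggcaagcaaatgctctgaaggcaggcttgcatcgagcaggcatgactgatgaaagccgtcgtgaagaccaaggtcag
Cym, chr3:107221683-107221982: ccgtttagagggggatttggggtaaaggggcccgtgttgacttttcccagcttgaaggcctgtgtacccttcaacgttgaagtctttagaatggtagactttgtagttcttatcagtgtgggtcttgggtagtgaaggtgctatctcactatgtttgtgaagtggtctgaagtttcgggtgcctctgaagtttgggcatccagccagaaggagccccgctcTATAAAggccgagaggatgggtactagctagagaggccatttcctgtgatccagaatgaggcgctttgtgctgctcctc
TATAAA stood 63 bases before the first Prok1 start and 29 bases before the Cym start. TTCNNNGAA occurred at 2 places before the other Prok1 start, at 113 and 87 bases upstream, and in neither of the other 2 windows. Both strands were searched, and no match overlapped another. Of 32817 promoter windows of this length, 8.29% held TTCNNNGAA, 13.6% held TATAAA and 19.6% held ACGTG, the core of the hypoxia element. TATAAA was added after these sequences had been seen. Among 11 windows of the 8 members with an entry, TATAAA was also found in that of Flt1, 31 bases before its start, and ACGTG in 1 of the windows of Vegfa, read as CACGT 211 bases before that start. Which Prok1 start was used in islets was not analysed here.

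Prok1 had an authors' mean of 236 reads in pregnant islets, against 1 read in nonpregnant islets. Cym had an authors' mean of 199 reads in pregnant islets and was listed at 0 in nonpregnant islets. Both genes lay at or next to 0 in nonpregnant islets and well above it in pregnant islets. In the authors' deposited table the Prok1 ratio was 121, with an adjusted p of 2.32e-63. That ratio appears to be computed on means plus 1, which gave a log2 ratio of 6.89 here. The sources used here do not state how it was computed. If the means came from 3 libraries without scaling, they stand for 708 reads in pregnant and 3 reads in nonpregnant islets, a ratio of 236 with an exact 95% interval of 80.4 to 1147 that covers counting error only. The log2 ratio of Prok1 was 6.92 in the authors' deposited table and 4.48 with 10 reads added to each mean. No fold is given for Cym, since its nonpregnant mean is listed at 0 and the authors' ratio appears to rest there on an added read. The adjusted p of Cym in the authors' deposited table was 7.39e-42. Both genes passed a minimum of 10 mean reads over the 2 groups only through the pregnant mean. Over all genes 7.57% of genes were called higher and 4.15% lower at an authors' adjusted p under 0.05, and of the 10 members 2 were called higher and 0 lower. Nothing is read from that count, because the members were picked with these values known.

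**Figure D1:**
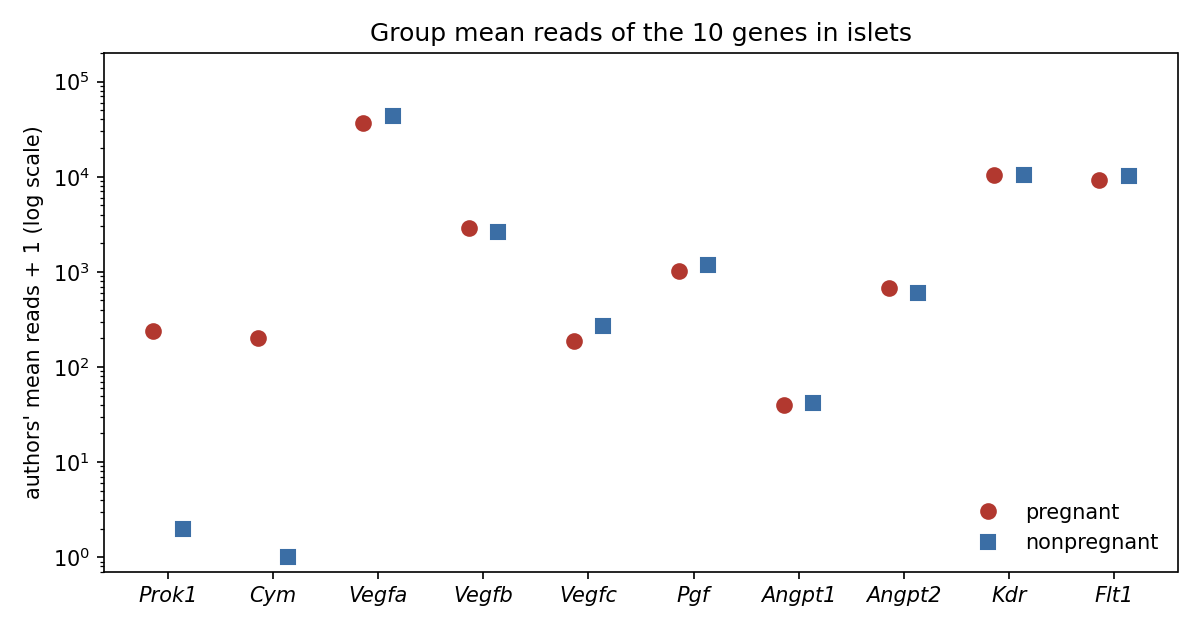
The authors' group mean of reads plus 1 (log axis) for each of the 10 genes, with pregnant islets as circles and nonpregnant islets as squares. Prok1 (236 against 1 read) and Cym (199 against 0 reads) are far apart between groups, while the other 8 genes lie close together.

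Markers of acinar cells, the exocrine cells around islets, moved in the same comparison, with 19 of 20 called higher and 0 lower, or 3 higher at an adjusted p under 0.01. Their summed reads were 1.59% of all mean reads in pregnant islets and 0.116% in nonpregnant islets, and their ratios ran from 6.93 to 23.4 in the authors' deposited table. The ratio of Prok1 in the authors' deposited table, 121, lay above all 20, but it rests on a nonpregnant mean of 1 read. With 10 reads added to each mean, the log2 ratio of Prok1 was 4.48. The log2 ratios of the acinar markers in the authors' deposited table ran from 2.79 to 4.55. They were not recomputed with 10 added reads, so the 4.48 of Prok1 is not on the same scale. The smallest unadjusted p among the acinar markers in the authors' deposited table was 0.000225, against 1.86e-66 for Prok1 and 1.22e-44 for Cym. Try4, a trypsin gene with close paralogs that may share its reads, had 91667 reads in pregnant islets and 5018 in nonpregnant islets, and Cpa1, a carboxypeptidase gene, had 112362 and 7623. The part of acinar RNA in the values of Prok1 and Cym was not tested.

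Of the 2234 genes with a nonpregnant mean of at most 1 read, 4 had a pregnant mean of at least 100 reads. These were Prok1, Cym, Krtap13-1, a keratin-associated protein gene, and Dppa1. The limits were set with the values of Prok1 and Cym known, so nothing is read from this count. In the authors' deposited table, Krtap13-1 had 150 reads in pregnant islets and was listed at 0 in nonpregnant islets, and Dppa1 had 177 and was also listed at 0. By the authors' p-value Prok1 was at place 16 and Cym at place 33 of all genes.

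The genes nearest to Prok1 in the authors' log2 ratio of 6.92, over 2 group means, included Krtap13-1, Gm13716 and Dppa1 above it and Gbp11 and Gm498 below it. Gbp11, which encodes a guanylate-binding protein, was closest, with a log2 ratio of 6.75 in the authors' deposited table, from means of 316 reads in pregnant and 2 reads in nonpregnant islets. Krtap13-1, Dppa1 and Gm498 are listed at 0 in nonpregnant islets, so their log2 ratios appear to rest on an added read. For the same reason no nearest genes are given for Cym.

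Prok1 (ENSMUSG00000070368) spans 107232797 to 107239707 and Cym (ENSMUSG00000046213) spans 107211293 to 107221732 on chromosome 3 of GRCm38, both on the minus strand. The spans are 11064 bases apart, and the start sites lie 18.0 kb apart. The 3′ part of Prok1 overlaps A630076J17Rik, a gene on the opposite strand, over 1146 exonic bases. The sources used here do not say whether counting used strand, so reads of the 2 genes may be mixed. Cym overlaps no annotated gene on the opposite strand. Angpt1 overlaps the antisense gene Gm17473 over 737 exonic bases, and Angpt2 lies within the span of Mcph1 without sharing exonic bases.

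Within 250 kb of the pair, 9 further genes had a line, of which 1 was called higher, 2 were called lower and 6 were neither. Kcna2, a voltage-gated potassium channel gene 96.3 kb from Cym, rose to 444 reads in pregnant islets, against 318 in nonpregnant islets (in the authors' deposited table the fold was 1.43 with an adjusted p of 0.0165). On the far side of Prok1, Kcnc4, another voltage-gated potassium channel gene, fell to 132 reads in pregnant islets, against 262 in nonpregnant islets (in the authors' deposited table, ratio 0.52, adjusted p = 0.00482). Slc6a17, a transporter of synaptic vesicles, fell to 9040 reads in pregnant islets, against 12741 in nonpregnant islets (in the authors' deposited table, ratio 0.73, adjusted p = 0.000226). The called neighbours went in both directions, and over all genes 7.57% were called higher and 4.15% lower. The ratios of these neighbours were closer to 1 than that of Prok1, which was picked with its value known. A cause shared over the region was not tested.

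The closest neighbour on the Prok1 side was Hbxip, named Lamtor5 in the annotation, a subunit of the lysosomal Ragulator complex. It had 2243 reads in pregnant islets and 2132 in nonpregnant islets (authors' deposited table, adjusted p = 0.795). Slc16a4, of the monocarboxylate transporter family, had 34 and 72 reads in pregnant and nonpregnant islets (authors' deposited table, adjusted p = 0.211), and Rbm15, an RNA-binding protein gene, had 1100 and 1315 reads (adjusted p = 0.282). The remaining 3, the potassium channel gene Kcna3 and the noncoding genes AI504432 and A930002I21Rik, had at most 31 reads in either group. None of these 6 genes was called in either direction.

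**Figure D2:**
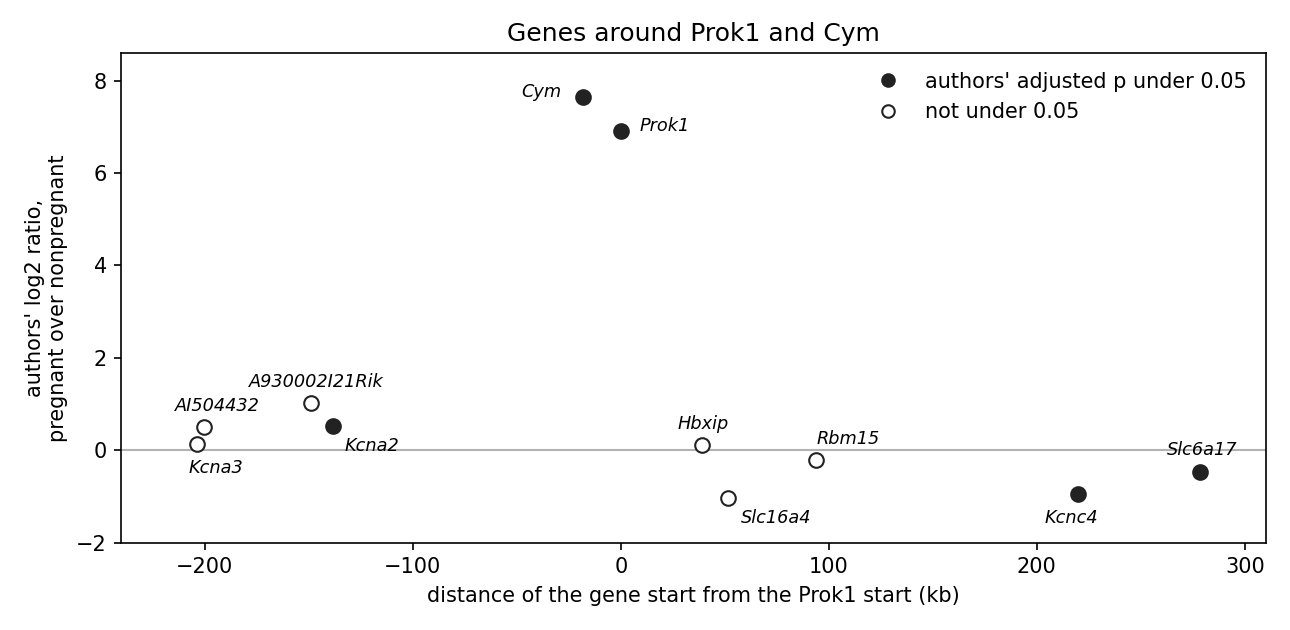
The authors' log2 ratio of pregnant over nonpregnant islets (apparently computed on means plus 1) against the distance of each gene's start from that of Prok1 in kb, for Prok1, Cym and the 9 genes around them. Filled circles mark an authors' adjusted p under 0.05. Prok1 and Cym stand far above the 9 neighbours, which lie between -1.04 and 1.01. The height of Cym appears to rest on an added read because its nonpregnant mean is listed at 0.

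The receptor Prokr1 and the other prokineticin were close to 0 in the same islets. Prokr1 had an authors' mean of 2 reads in pregnant and 2 reads in nonpregnant islets, and the ligand Prok2 had 1 in pregnant and 1 in nonpregnant islets. No line of the authors' deposited table carried the symbol Prokr2. Of the 3 prokineticin genes with a line, Prok1 was thus the 1 member with more than 2 mean reads in either group. At 2 mean reads or fewer, a fall or a small rise was not detectable.

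The 8 angiogenic members other than Prok1 and Cym had ratios between 0.72 and 1.17 in the authors' deposited table, and of these 8 genes 0 were called higher and 0 lower. Of the 8, 1 gene, Vegfa, had an unadjusted p under 0.05. Vegfa had an authors' mean of 36660 reads in pregnant islets and 43470 reads in nonpregnant islets (in the authors' deposited table, ratio 0.86, p = 0.0369 and adjusted p = 0.185). Vegfb, which binds Flt1, had 2904 reads in pregnant islets and 2612 reads in nonpregnant islets (in the authors' deposited table, ratio 1.14, adjusted p = 0.326). Neither ligand was called at an authors' adjusted p under 0.05.

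Pgf, placental growth factor, which also binds Flt1, had 1008 reads in pregnant islets and 1172 in nonpregnant islets (in the authors' deposited table, ratio 0.88, adjusted p = 0.727). Vegfc, the ligand of Flt4 in lymphatic vessels, had 186 reads in pregnant islets and 267 in nonpregnant islets (in the authors' deposited table, ratio 0.72, adjusted p = 0.279), the lowest ratio of the 10 members. Figf, the gene of VEGF-D, had 7 and 17 reads in pregnant and nonpregnant islets (authors' deposited table, adjusted p = 0.406). No VEGF ligand was called in either direction, which at this design does not show that their levels were equal.

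Of the angiopoietins, Angpt2 had 680 reads in pregnant islets and 593 in nonpregnant islets (in the authors' deposited table, ratio 1.17, adjusted p = 0.348), the highest ratio among the 8. Angpt1 had 39 reads in pregnant islets and 41 in nonpregnant islets (in the authors' deposited table, ratio 0.97, adjusted p = 1). Their receptor Tek had 660 and 745 reads, and the related receptor Tie1 had 1703 and 1926 reads, in pregnant and nonpregnant islets (authors' deposited table, adjusted p = 0.766 and 0.561).

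The VEGF receptors had ratios close to 1. Kdr had 10484 reads in pregnant islets and 10550 in nonpregnant islets (in the authors' deposited table, ratio 1.02, adjusted p = 0.98). For Kdr the means and the ratio fall on opposite sides of equality, since the authors' ratios exceed those of the means by a factor of 1.02. Flt1 had 9262 reads in pregnant islets and 10107 in nonpregnant islets (in the authors' deposited table, ratio 0.94, adjusted p = 0.857). The co-receptor gene Nrp1 had 5927 and 6184 reads and Nrp2 783 and 891 reads in pregnant and nonpregnant islets, with adjusted p-values of 0.98 and 0.604 in the authors' deposited table. Flt4 had 776 reads in pregnant islets and 1027 in nonpregnant islets (in the authors' deposited table, ratio 0.77, adjusted p = 0.376). In whole islets a change in the number of endothelial cells and a change in RNA per endothelial cell cannot be told apart.

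Levels of different genes were compared in RPKM units, computed here from each group mean by dividing it by the length of annotated exon and by the group's summed mean reads. On this scale Vegfa was at 97.6 in pregnant islets and 120 in nonpregnant islets, higher than 98.7% and 99.2% of annotated genes. Vegfb was at 20.6 in pregnant and 19.3 in nonpregnant islets, and Pgf at 3.96 and 4.78. The level of Vegfa was 4.73 times that of Vegfb in pregnant islets and 6.23 times in nonpregnant islets. Angpt2 was at 2.10 in pregnant and 1.90 in nonpregnant islets, Vegfc at 0.866 and 1.29, and Angpt1 at 0.0855 and 0.0932. The level of Angpt2 was thus 24.6 times that of Angpt1 in pregnant islets and 20.4 times in nonpregnant islets.

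Among receptors the per-length level of Kdr was 13.2 in pregnant and 13.8 in nonpregnant islets, and that of Flt1 was 7.82 and 8.86. Nrp1 was at 6.91 and 7.48 in pregnant and nonpregnant islets, below Flt1, but with the longest transcript as length it stood above Flt1, at 18.6 and 20.1 against 15.3 and 17.3. Flt4 was at 1.08 and 1.48. Prok1 reached 0.831 in pregnant islets, against 0.00365 in nonpregnant islets. Cym reached 1.84 in pregnant islets. In pregnant islets the level of Prok1 was close to that of Vegfc, above that of Angpt1, and lower than that of Vegfa by a factor of 117. Counted from the highest level, the order of the 10 members in pregnant islets was Vegfa, Vegfb, Kdr, Flt1, Pgf, Angpt2, Cym, Vegfc, Prok1 and Angpt1. In nonpregnant islets the first 6 were in the same order, followed by Vegfc, Angpt1, Prok1 and Cym. With the longest transcript as length, Prok1 stood above Vegfc in pregnant islets. With 1 mean per group, which neighbours in these orders differ beyond the spread between samples is not known.

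**Figure D3:**
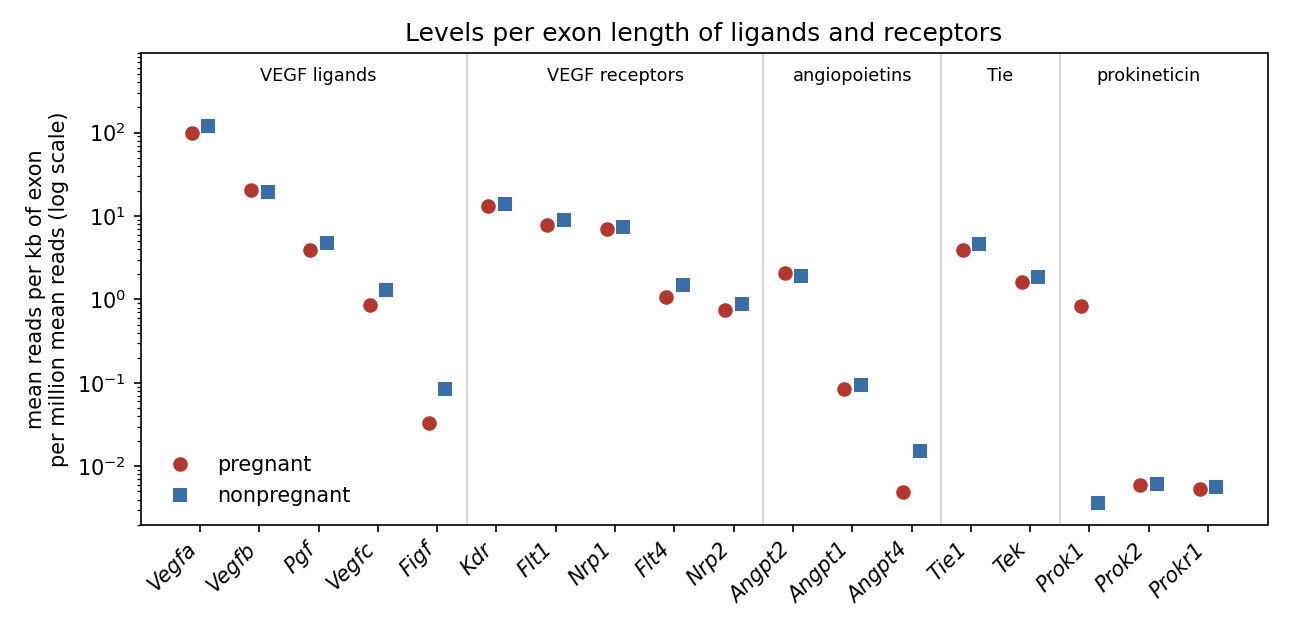
Group mean reads scaled to exon length and summed mean reads, in RPKM units (log axis), for ligands and receptors, with pregnant islets as circles and nonpregnant islets as squares. Vegfa is highest at 97.6 and 120, and Prok1 is at 0.831 in pregnant islets against 0.00365 in nonpregnant islets.

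The wider pathway was described from fixed lists and read against the 11.7% of all genes that were called in either direction. In the list of VEGF ligands, receptors and co-receptors, 0 of 10 genes were called higher and 0 lower, with a median log2 ratio of -0.17 in the authors' deposited table, against -0.02 over all genes. At an unadjusted p under 0.05 this list held 1 of its 10 genes, against 22.2% of all genes. In the angiopoietin and Tie list 0 of 7 genes were called higher and 1 lower. That gene was Ptprb, an endothelial phosphatase that restrains Tek, which fell to 2887 reads in pregnant islets, against 3849 in nonpregnant islets (in the authors' deposited table, ratio 0.77, adjusted p = 0.0163). The median log2 ratio of the 7 was -0.14.

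Among 26 other angiogenic factors and inhibitors, such as fibroblast and platelet-derived growth factors, apelin, semaphorins and thrombospondins, 0 were called higher and 0 lower, with a median log2 ratio of 0.09. At an unadjusted p under 0.05 this list held 1 of its 26 genes. Among 16 genes of the hypoxia response, which holds Vegfa itself, 0 were called higher and 1 lower, with a median log2 ratio of -0.02 and 5 genes at an unadjusted p under 0.05. The called gene was P4ha1, a collagen prolyl hydroxylase, which fell to 4863 reads in pregnant islets, against 7746 in nonpregnant islets (in the authors' deposited table, ratio 0.64, adjusted p = 2.8e-05).

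Markers of vessel cells were set beside these values. Of 24 endothelial markers, a list that shares Kdr, Flt1, Tek, Tie1 and Ptprb with those above, 0 were called higher and 1 lower, again Ptprb, 3 had an unadjusted p under 0.05, and the median log2 ratio was -0.01. Their summed reads were 0.0686% of all mean reads in pregnant islets and 0.0758% in nonpregnant islets, and none was listed at 0. Pecam1, a junction protein of endothelium, had 3331 reads in pregnant islets and 3460 in nonpregnant islets, and Cdh5, vascular cadherin, had 1751 and 1799 (authors' deposited table, adjusted p = 0.999 and 1). Of 11 mural cell markers 1 was called higher and 0 lower, with a median log2 ratio of 0.19. Rgs5, a pericyte marker, rose to 10383 reads in pregnant islets, against 8683 in nonpregnant islets (in the authors' deposited table, fold 1.23, adjusted p = 0.0412). Of 5 lymphatic markers 0 were called higher and 1 lower. The called one, Reln, which encodes reelin and is made by other cells too, fell to 91 reads in pregnant islets, against 685 in nonpregnant islets (in the authors' deposited table, ratio 0.14, adjusted p = 5.14e-17).

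No other aspartic protease gene was called higher with Cym. Of 7 aspartic protease genes with a line, 1 was called higher, Cym itself, and 1 lower. Bace2, a beta cell protease, fell to 22964 reads in pregnant islets, against 29039 in nonpregnant islets (in the authors' deposited table, ratio 0.81, adjusted p = 0.0277). Ctsd, the lysosomal cathepsin D, had 26809 and 23452 reads in pregnant and nonpregnant islets (authors' deposited table, adjusted p = 0.138). The stomach-type members Pga5, a pepsinogen, and Ctse, cathepsin E, had 1 and 6 reads in pregnant islets and 1 and 4 reads in nonpregnant islets.

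**Figure D4:**
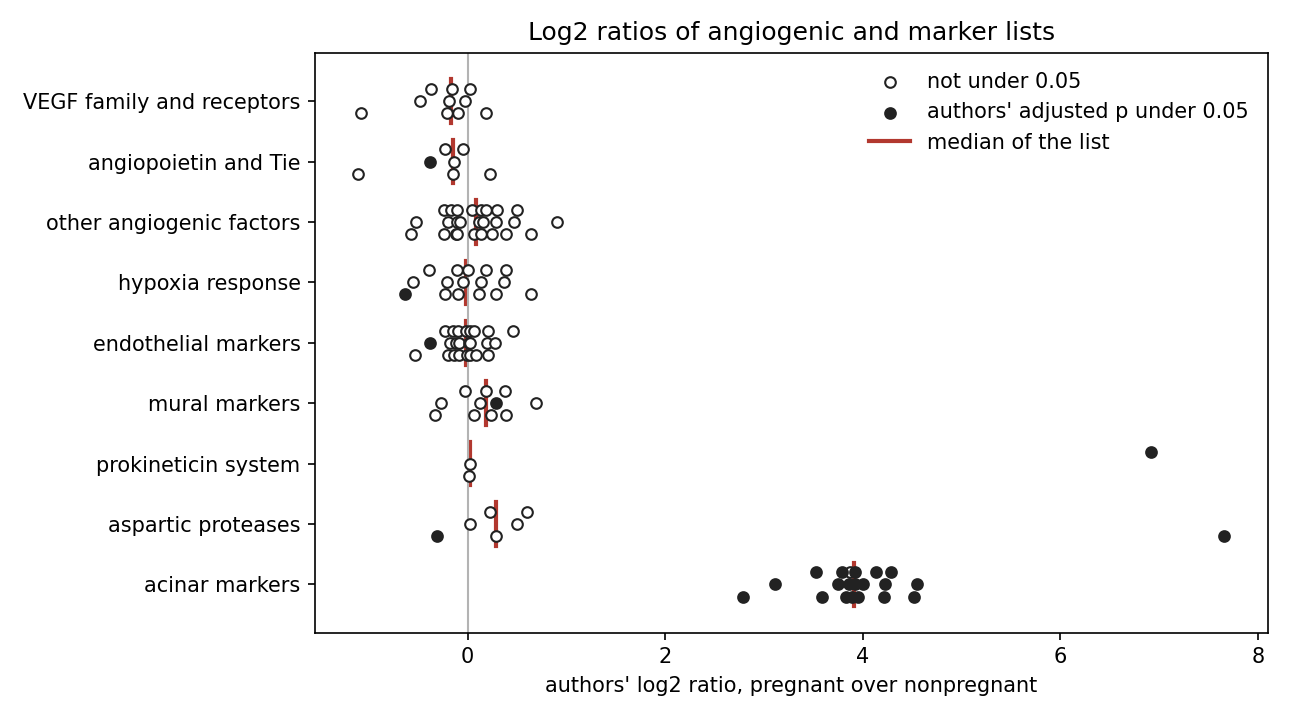
The authors' log2 ratio of pregnant over nonpregnant islets for every gene of 9 lists, with 1 circle per gene, filled where the authors' adjusted p is under 0.05, and a bar at each list's median. Prok1 and Cym lie apart from the other genes of their lists, and the acinar markers lie between 2.79 and 4.55.

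Endocrine markers were abundant, with the beta cell list at 22.2% of mean reads in pregnant islets and 18.9% in nonpregnant islets. Of 10 beta cell markers 2 were called higher and 1 lower, of 6 alpha cell markers 0 higher and 3 lower, and of 3 delta and PP cell markers 0 higher and 1 lower. Of 7 ductal markers 1 was called higher and 0 lower, and of 7 macrophage markers 1 higher and 0 lower. The authors' mean reads summed to 87654449 in pregnant and 84493872 in nonpregnant islets.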

How the data were processed

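RNA sequencing was summarised by the authors as 1 line per gene. Per the submitters' processing notes, TopHat2 2.0.12, TopHat, Bowtie and HTSeq 0.5.3p3 were used with GRCm38. Each line of the deposited table holds, per the file headers, the group mean of read counts, rounded to whole reads, for pregnant and nonpregnant islets. It also holds the authors' fold change, which is a linear ratio, its log2 value, and the authors' p-value with an adjusted form (FDR). The test behind them, and any scaling before averaging, are not given in the sources used here. Nothing says that the samples are separate animals, so the authors' p-values may measure technical spread only.

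Lines were reduced to 19940 genes by Ensembl ID. Benjamini-Hochberg values recomputed from the p-values differed from the deposited ones by at most 0.00203. The authors' log2 ratio exceeded that of the means by a median of 0.04 in 10102 genes. A gene was called at an authors' adjusted p under 0.05. Exon lengths and positions came from GENCODE M21 (96.6% of genes matched). The design had edgeR as a fallback for counts per library, which group means do not allow. The genes and lists were chosen with earlier results of these data known. Named genes were the members, genes within 250 kb, the receptors, up to 6 called genes per list with the smallest adjusted p, defining markers, and the 3 genes on each side of Prok1 and Cym in log2 ratio (those for Cym were dropped, as its nonpregnant mean is listed at 0); for brevity not every one is printed, and 1 gene that the rule names is not reported here. The alternatives were other pseudocounts, scalings, thresholds, lengths and windows. Python 3.11.15, pandas 2.3.3, numpy 2.4.6 and scipy 1.17.1 were used, and the adjustment was tested on simulated data.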

Additional observations from a re-analysis of the deposited data

How the results depend on the processing

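Refits without single libraries, DESeq2 and filters on counts were not run, since they need values per library. No paired analysis was possible because the deposited columns are group means that carry no replicate number. Of 153 alternative values, 111 stayed within counting error (reads taken as 3 times each mean) or within 1.5 times the count and 42 moved. No called direction reversed, but Cym was left out of the recomputed ratios, and none of these settings could have reversed Prok1. The median log2 ratio of genes with at least 10 mean reads was -0.01 by the authors' values and -0.10 when scaled to summed mean reads. Prok1 had a log2 ratio of 4.48 with a pseudocount of 10, against 6.92 in the authors' table. Vegfa was at -0.25 with pseudocounts of 0, 1 and 10, at -0.30 scaled to summed mean reads and at -0.28 scaled without the acinar list. With the same 2 scalings Kdr was at -0.062 and -0.041 and Flt1 at -0.18 and -0.16, Vegfb at 0.10 and 0.12, and Pgf at -0.27 with the first. With pseudocounts of 0, 1 and 10, Kdr was at -0.0091, -0.0091 and -0.0090 and Flt1 at -0.13. The sign of Kdr thus differed between the authors' ratio, 0.02, and all 5 recomputed ones.

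At an adjusted p under 0.01, the angiopoietin and endothelial lists had 0 genes lower, mural, ductal and macrophage lists 0 higher, aspartic proteases 0 lower, acinar markers 3 higher and beta cell markers 1 higher. At 0.1, the hypoxia list had 2 higher and 2 lower, endothelial markers 2 lower, alpha cell markers 1 higher and 4 lower, and macrophage markers 2 higher. Adjusted over genes with at least 10 mean reads, the hypoxia and endothelial lists each had 2 lower. Prok1 and Cym were called under each of these rules. Of 38 genes within 1000 kb of the pair, 4 were called higher and 5 lower, where 7.57% and 4.15% of all genes were. With the longest transcript as length, levels in pregnant islets were 121 for Vegfa, 25.9 for Vegfb, 5.53 for Pgf, 0.104 for Angpt1, 20.2 for Kdr and 15.3 for Flt1.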

Other observations

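The neighbours Prok1 and Cym were not the sole genes within 250 kb of each other among the strongest rises. Among 21 annotated genes with an authors' log2 ratio of at least 5, a call and at least 10 mean reads, the pairs within 250 kb of each other included Cym with Prok1, Cldn8 with Krtap13-1, and Lrrc55 with Gm13716. Both limits were chosen with these values known. Cym and Prok1 were the closest pair of separate genes, 11.1 kb apart on the same strand. Cldn8, a tight junction gene, and Krtap13-1 lay 166 kb apart on chromosome 16, with 22519 and 150 reads in pregnant islets, against 73 reads and a listing of 0 in nonpregnant islets. Lrrc55 and Gm13716 on chromosome 2 overlap on opposite strands, so where counting ignored strand their reads cannot be told apart, and they had 3957 and 1101 reads in pregnant islets, against 21 and 5 in nonpregnant islets. How often genes taken at random lie this close was not tested.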
